A study of Rattus norvegicus with 24 samples.

Results

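Aadat, Agxt2, Hao2, Hpd and Acsm2 are 5 enzyme genes of the proximal tubule and were measured here in rat kidney. They were taken by gene symbol from the 1422 symbols with a measured probe on the array, and each had 1 measured probe. They were chosen by their log ratios in these same groups, which lay far on the negative side, though for Hpd not in every group. Their group values are therefore a description here, with no test, and support nothing by themselves.

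The study compared total RNA of kidney between rats labelled LS and HS, read here as low and high salt. The strains were SS, the Dahl salt-sensitive rat, and SS-13BN/Mcw, in which chromosome 13 comes from the Brown Norway (BN) strain while the rest is SS. SS-13BN/Mcw and SS therefore share the SS genome apart from that chromosome. In each strain the salt comparison was made overnight and at 3 days, with 3 pairs of rats per group, which gives 4 groups and 12 pairs. Each pair was hybridised on 2 of the 24 two-colour cDNA arrays, once in each dye orientation, with values for 877 to 1412 probes on each array. Neither the age and sex of the rats, nor the salt content of the diets, nor the kidney region is given in the sources used here. By the array titles, rats 1, 2 and 3 of each strain were hybridised again at the second time, and the times of 1 strain are therefore not independent. The other rat of each pair has another number at each time, and which rat of a pair had which diet is not given.

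All values are log ratios of 1 rat over the other in the units of the deposited table, centred on the median of each array. Neither the base of the logarithm nor the rat in the numerator is stated, which is why values are left as log ratios and not turned into folds. The values are taken as already turned to a common direction in both dye orientations, which the sources do not state. On that reading a negative value places a gene on one side of the salt comparison, the same side for all 5 genes. It does not say whether salt raised or lowered the gene. Had the values not been turned, an equal sign in both orientations would follow the dye and not the diet. The reading rests on a check over all probes and not on the sources. In it, swapped arrays of a pair had r from -0.0595 to 0.749 as they stand. After removal of the mean of each orientation r ran from 0.169 to 0.825. Where a value is given for a pair, it is the mean of its 2 dye-swapped arrays, and ± is the SD over the pairs of a group unless SE is named.

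Cells of the proximal tubule take back nearly all filtered amino acids and many organic acids, and use part of them for energy and glucose synthesis. Enzymes of amino acid breakdown and of acyl-CoA chemistry are therefore abundant in this segment, in mitochondria, peroxisomes and the cytosol. Aadat is a mitochondrial aminotransferase that acts on 2-aminoadipate, an intermediate of lysine breakdown, and on kynurenine from tryptophan. Agxt2 is a mitochondrial aminotransferase that uses alanine to convert glyoxylate to glycine and also degrades dimethylarginines, which inhibit nitric oxide synthesis. Hao2 is a peroxisomal flavin oxidase of 2-hydroxy acids. Hpd is a dioxygenase that turns 4-hydroxyphenylpyruvate into homogentisate in tyrosine breakdown. Acsm2 is a mitochondrial ligase that activates medium-chain fatty acids and aromatic acids such as benzoate to their CoA esters.

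None of the 5 genes lies on chromosome 13, the chromosome in which the strains differ by design. In the RefSeq annotation of the GRCr8 rat assembly Aadat spans chr16:34520236-34566388, Agxt2 chr2:61063416-61104828, Hao2 chr2:188888848-188921567, Hpd chr12:39042246-39053596 and Acsm2 chr1:183347705-183386453. The promoters are shown because 4 of these genes varied together over the pairs and Hpd did so less. Each window runs from 250 bases before to 50 bases after the annotated start, 300 bases, 5′ to 3′ on the gene's strand, from RefSeq on GRCr8. Capitals mark matches, on either strand, to the short motifs CAAAGT and CAAAGTNCA (bound by HNF4), GTTAAT and GTTAAC (bound by HNF1), AGGTCA (bound by nuclear receptors) and TATAAA. A CAAAGTNCA match always contains CAAAGT, and GTTAAC reads the same on both strands. HNF1 and HNF4 are transcription factors of the proximal tubule and the liver.
Aadat, chr16:34555131-34555430, minus strand: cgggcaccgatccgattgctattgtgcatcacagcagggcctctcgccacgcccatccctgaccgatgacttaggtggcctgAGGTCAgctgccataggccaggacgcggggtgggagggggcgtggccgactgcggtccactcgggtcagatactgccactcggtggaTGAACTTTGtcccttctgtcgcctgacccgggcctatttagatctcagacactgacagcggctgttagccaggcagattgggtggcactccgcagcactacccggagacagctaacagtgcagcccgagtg
Agxt2, chr2:61063166-61063465, plus strand: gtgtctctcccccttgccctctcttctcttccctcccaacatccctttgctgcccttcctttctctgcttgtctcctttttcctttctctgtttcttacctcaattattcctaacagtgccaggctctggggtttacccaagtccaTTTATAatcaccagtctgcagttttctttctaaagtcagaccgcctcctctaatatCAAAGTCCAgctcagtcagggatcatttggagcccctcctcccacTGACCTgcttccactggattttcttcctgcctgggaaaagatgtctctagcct
Hao2, chr2:188913084-188913383, minus strand: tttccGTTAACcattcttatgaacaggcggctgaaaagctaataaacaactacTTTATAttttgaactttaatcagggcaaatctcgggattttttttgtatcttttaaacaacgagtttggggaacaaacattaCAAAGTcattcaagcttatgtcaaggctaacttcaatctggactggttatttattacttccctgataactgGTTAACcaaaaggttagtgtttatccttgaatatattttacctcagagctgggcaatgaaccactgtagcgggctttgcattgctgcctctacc
Acsm2, chr1:183347455-183347754, plus strand: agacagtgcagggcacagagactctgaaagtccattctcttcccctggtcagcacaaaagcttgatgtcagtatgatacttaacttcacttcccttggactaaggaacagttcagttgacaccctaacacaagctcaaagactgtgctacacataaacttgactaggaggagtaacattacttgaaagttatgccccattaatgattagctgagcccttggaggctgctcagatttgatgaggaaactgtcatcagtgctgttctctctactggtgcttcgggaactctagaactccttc
Hpd, chr12:39041996-39042295, plus strand: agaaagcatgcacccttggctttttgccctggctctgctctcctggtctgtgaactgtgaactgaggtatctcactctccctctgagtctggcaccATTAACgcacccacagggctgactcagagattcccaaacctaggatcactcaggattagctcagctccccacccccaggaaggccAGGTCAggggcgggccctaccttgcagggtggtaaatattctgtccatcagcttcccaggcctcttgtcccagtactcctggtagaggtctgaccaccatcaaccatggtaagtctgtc

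The start used for Aadat, and that for Hao2, lies inside the annotated span of the gene, so other transcripts start elsewhere. CAAAGTNCA was found in the windows of Aadat, starting 81 bases before the start site on the opposite strand, and of Agxt2, starting 48 bases before it. It was found in 1.24 percent of all 33469 windows of this length. The shorter CAAAGT was also found in Hao2, 115 bases before the start, and in 14.8 percent of all windows. Hao2 held GTTAAC at 245 and at 44 bases before its start, against 2.78 percent of all windows with such a match, and Hpd held GTTAAT 154 bases before its start on the opposite strand, against 7.45 percent. AGGTCA was present in Aadat, Agxt2 and Hpd and in 16.2 percent of all windows. TATAAA was present, on the opposite strand, in Agxt2 and Hao2 and in 14.2 percent of all windows. The Acsm2 window held none of these letters. The GC content was 62.3 percent in Aadat, 55.3 in Hpd, 48.7 in Agxt2, 45.0 in Acsm2 and 37.0 in Hao2, against a median of 51.7 over all windows. A match is a description of letters in the reference sequence, not a site shown to be bound.

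The first question was where the 5 genes stood in each group. Aadat, the aminotransferase of lysine and kynurenine metabolism (probe 286), had values of -0.94, -0.999 and -0.43 in SS pairs 1, 2 and 3 overnight. At 3 days the SS pairs stood at -1.57, -0.51 and -0.25. Every one of these was negative, and pair 1 at 3 days lay far below the other two. In SS-13BN/Mcw Aadat stood at -1.10, -1.44 and -2.55 overnight and at -1.47, -1.51 and -1.43 at 3 days. The group means were -0.79 ± 0.31 and -0.78 ± 0.70 in SS, and -1.70 ± 0.76 and -1.47 ± 0.043 in SS-13BN/Mcw (n = 3 pairs each). The 3-day SS-13BN/Mcw pairs were the tightest set of values of Aadat, and SS pair 1 at 3 days was the one SS pair that reached them.

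Acsm2, the medium-chain acyl-CoA ligase (probe 171), stood at -0.73, -1.17 and -0.16 in the SS pairs overnight and at -1.69, -0.16 and -0.30 at 3 days. Its SS-13BN/Mcw pairs stood at -1.05, -1.51 and -2.70 overnight and at -1.05, -1.87 and -1.41 at 3 days. The lowest of all pair values of the 5 genes was the -2.70 of SS-13BN/Mcw pair 3 overnight. Means were -0.69 ± 0.51 and -0.72 ± 0.85 in SS, and -1.76 ± 0.85 and -1.44 ± 0.41 in SS-13BN/Mcw (n = 3). The SD of the 3-day SS group was larger than its mean in size, with pair 1 at -1.69 and the other two at -0.16 and -0.30.

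Hao2, the peroxisomal 2-hydroxy acid oxidase (probe 379), stood at -0.59, -1.12 and -0.65 in SS overnight and at -1.30, -0.56 and -0.34 in SS at 3 days. In SS-13BN/Mcw it stood at -0.98, -1.15 and -2.59 overnight and at -1.26, -1.56 and -1.22 at 3 days. As for Aadat and Acsm2, pair 3 of SS-13BN/Mcw overnight and pair 1 of SS at 3 days were the lowest of their groups. Means were -0.79 ± 0.29 and -0.73 ± 0.50 in SS, and -1.58 ± 0.89 and -1.35 ± 0.18 in SS-13BN/Mcw (n = 3).

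Agxt2, the aminotransferase of glyoxylate and dimethylarginine (probe 137), stood at -0.80, -0.62 and -0.16 in SS overnight and at -1.50, -0.19 and -0.24 in SS at 3 days. In SS-13BN/Mcw its overnight pairs stood at -0.81, -1.34 and -2.03. At 3 days pairs 1 and 3 stood at -0.86 and -1.23, and pair 2 lacked a value on 1 of its arrays and was left out. Means were -0.53 ± 0.33 and -0.65 ± 0.74 in SS (n = 3), -1.39 ± 0.61 in SS-13BN/Mcw overnight (n = 3) and -1.05 ± 0.26 at 3 days (n = 2). The order of the pairs was again the one of Aadat and Acsm2 in the overnight SS-13BN/Mcw group.

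Hpd, the dioxygenase of tyrosine breakdown (probe 649), had a smaller range and another pattern. SS pairs stood at -0.63, -0.37 and -0.46 overnight and at -0.65, -0.23 and -0.11 at 3 days. SS-13BN/Mcw pairs stood at -0.71, -0.87 and -0.77 overnight, a tight group in which pair 3 did not stand apart. At 3 days they stood at -0.15, -0.12 and -0.21, the smallest values of Hpd in any group on average. Means were -0.49 ± 0.14 and -0.33 ± 0.28 in SS, and -0.78 ± 0.078 and -0.16 ± 0.044 in SS-13BN/Mcw (n = 3).

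**Figure D1:**
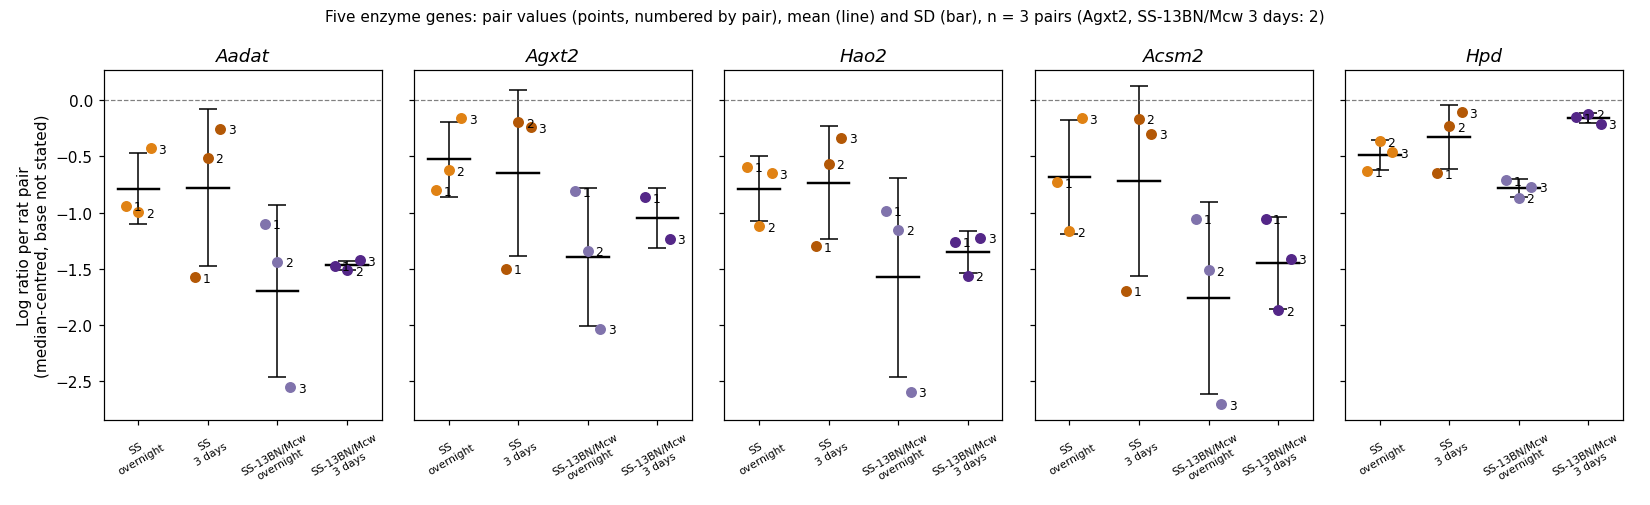
Log ratio of each rat pair (vertical axis, median-centred, base not stated) for each gene in the 4 groups on the horizontal axis. Points are pairs labelled with their number, the line is the group mean and the bar the SD. All pair values lie below 0, and Hpd in SS-13BN/Mcw at 3 days lies between -0.21 and -0.12 while Aadat there lies between -1.51 and -1.43.

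Ordered by mean, Aadat, Acsm2, Hao2 and Agxt2 had the same order of groups except for the neighbours within a strain. By mean, both SS-13BN/Mcw groups lay below both SS groups. The 2 SS groups of each of these genes overlapped, and so did the 2 SS-13BN/Mcw groups. The 2 groups of a strain are thus neighbours whose order is not read as a difference. For Hpd the order from the most negative was SS-13BN/Mcw overnight, SS overnight, SS at 3 days and SS-13BN/Mcw at 3 days. Among all probes tested, Acsm2, Aadat, Hao2 and Agxt2 ranked 2, 3, 4 and 6 of 1100 from the most negative mean in SS-13BN/Mcw overnight, where Hpd ranked 24. In SS-13BN/Mcw at 3 days they ranked 5, 4, 7 and 10 of 907, and Hpd ranked 162. These ranks describe values that chose the genes.

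The values were also read in each dye orientation, in which the same RNAs were labelled the other way round. Aadat was negative on 24 of 24 arrays (lowest -2.59, median -1.29, highest -0.17), as were Hao2 (-2.62, -1.08, -0.23) and Acsm2 (-2.85, -1.24, -0.054). Agxt2 was negative on 22 of 23 arrays and Hpd on 21 of 24, and their highest values were 0.0065 and 0.080. Of the 701 probes with a value on all arrays, 8 were negative on each of them (1.14 percent) and 0 were positive on each.

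The gap between the 2 orientations of a pair had a median size of 0.26 for Aadat, 0.21 for Hao2, 0.25 for Acsm2, 0.35 for Agxt2 and 0.41 for Hpd, against 0.26 for all probes. The gap had a direction in some genes. Hpd averaged -0.27 with the lower-numbered rat in Cy5 and -0.61 with it in Cy3, while Agxt2 averaged -1.05 and -0.77. For Hpd the mean gap of 0.35 was larger in size than its 3-day mean of -0.16 in SS-13BN/Mcw. The 2 orientations correlated over the pairs with r = 0.936 for Aadat, 0.926 for Acsm2, 0.895 for Hao2 and Agxt2 and 0.829 for Hpd (12 pairs, 11 for Agxt2), as a description over pairs that share rats.

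**Figure D2:**
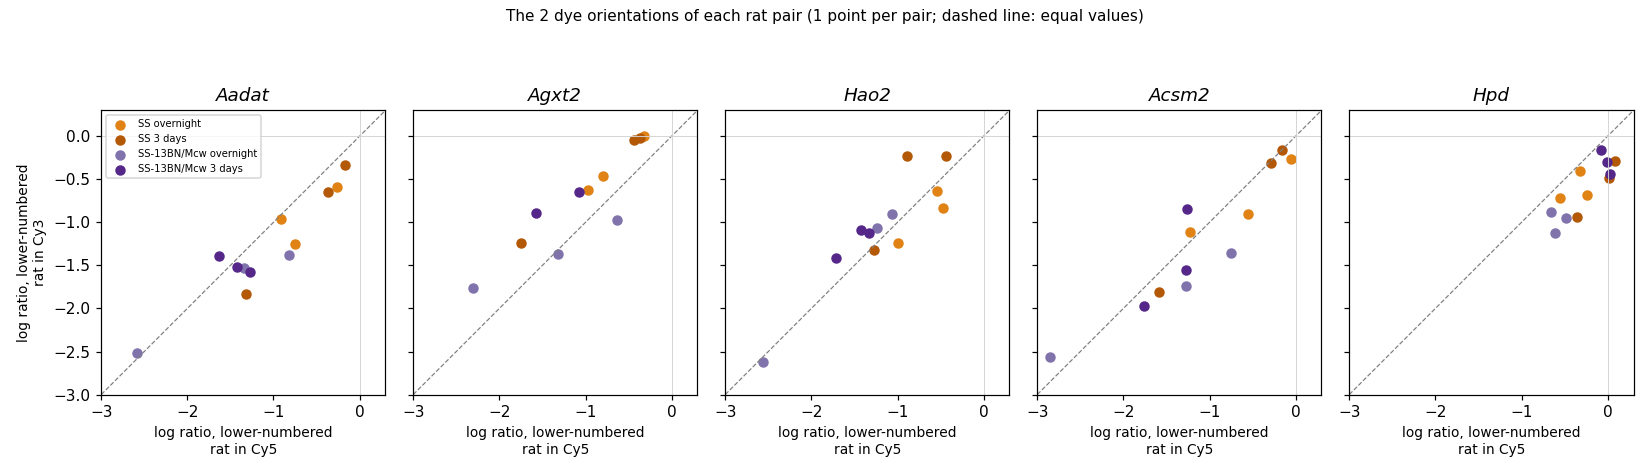
Each point is a rat pair, with the log ratio of the array that had the lower-numbered rat in Cy5 on the horizontal axis and that of the array with it in Cy3 on the vertical axis. The dashed line marks equal values, and all 12 points of Hpd lie below it, with a mean of -0.61 against -0.27.

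Aadat, Agxt2, Hao2 and Acsm2 varied together over the rat pairs. Over the pairs, the 6 combinations of these genes had r from 0.875 to 0.971, and from 0.806 to 0.956 after the group means were removed. Hpd had r from 0.31 to 0.59 with them, and from 0.285 to 0.717 within groups. These are descriptions over 12 pairs (11 with Agxt2) in which both values come from the same arrays and the 2 times of a strain share rats. The pairs that lay far out in all 4 genes were also those with the widest spread over all probes. The SD over all probes was 0.485 in SS-13BN/Mcw pair 3 overnight and 0.359 in SS pair 1 at 3 days, against 0.197 to 0.341 in the other pairs.

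The label of the genes as proximal tubule genes was set against cell type markers. Of 33 proximal tubule markers 14 had a measured probe, and 7 of these had a value on all arrays. Pair medians are therefore not over a fixed set of markers. SS pairs 1, 2 and 3 at 3 days had 13, 10 and 9 of them, and those of SS-13BN/Mcw overnight 14, 13 and 11. The median of these markers ran from -0.393 to -0.25 over the pairs of SS overnight and from -0.76 to -0.105 at 3 days. In SS-13BN/Mcw it ran from -1.15 to -0.451 overnight and from -0.963 to -0.613 at 3 days. In SS at 3 days and in SS-13BN/Mcw overnight its lowest value was in the pair in which Aadat, Agxt2, Hao2 and Acsm2 were lowest too, pair 1 (-0.76) and pair 3 (-1.15). This did not hold in the other groups. In SS overnight the marker median was lowest in pair 1, as Agxt2 was, while Aadat, Hao2 and Acsm2 were lowest in pair 2. In SS-13BN/Mcw at 3 days it was lowest in pair 3, while Aadat, Hao2 and Acsm2 were lowest in pair 2, which Agxt2 lacks. By mean, 11 of 13 tested markers lay below 0 in SS overnight and 9 of 10 in SS at 3 days. In SS-13BN/Mcw 12 of 14 did so overnight and 9 of 12 at 3 days. Among markers with at least 2 pairs in every group, Anpep, Kap, Gsta2 and Lrp2 were the largest in size. They averaged -1.24, -1.20, -1.16 and -0.80 over the groups. A few markers went the other way. The water channel Aqp1 (0.11, 0.086, 0.054 and 0.19 in SS overnight, SS at 3 days, SS-13BN/Mcw overnight and SS-13BN/Mcw at 3 days) and the gluconeogenic enzyme Fbp1 (0.15, 0.046, 0.18 and 0.21) had means above 0 in each group, and the brush border protease Mep1b stood at 0.13 in SS-13BN/Mcw at 3 days. In bulk kidney RNA a difference in the share of proximal tubule cells and a difference in the RNA of these genes per cell cannot be told apart.

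Markers of other cells did not share one pattern. The median of the fibroblast and matrix markers (6 of 8 with a probe, 3 to 5 with a value in a pair) ran from 0.30 to 0.82 in SS overnight and from 0.26 to 1.00 in SS at 3 days. It ran from 0.18 to 0.91 in SS-13BN/Mcw overnight and from -0.14 to 0.097 at 3 days. Its highest value in the SS 3-day group and in the SS-13BN/Mcw overnight group was in the same pair in which the 4 genes were lowest, but in SS-13BN/Mcw at 3 days the 4 genes were far below 0 with these markers near 0. Thick ascending limb and distal markers (6 of 12) had pair medians from -0.35 to -0.094 in the SS groups and SS-13BN/Mcw overnight, and from -0.061 to 0.062 in SS-13BN/Mcw at 3 days. Collecting duct markers (3 of 11) lay from -0.22 to 0.013 in those first 3 groups and from 0.17 to 0.39 in SS-13BN/Mcw at 3 days. Liver expresses several of these enzymes too, and its 6 markers had values on 1 to 5 of the arrays each, 14 of 144 possible values, with none in both arrays of enough pairs to be tested. Podocyte markers (2 of 6) had values on 3 to 7 arrays and leukocyte markers (2 of 8) on 2 to 18. The endothelial marker Kdr averaged 0.069 over the groups, and the red cell genes Hba-a1 and Hbb averaged 0.097 and -0.070. The part of changing cell proportions in the values of the 5 genes was not tested.

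**Figure D3:**
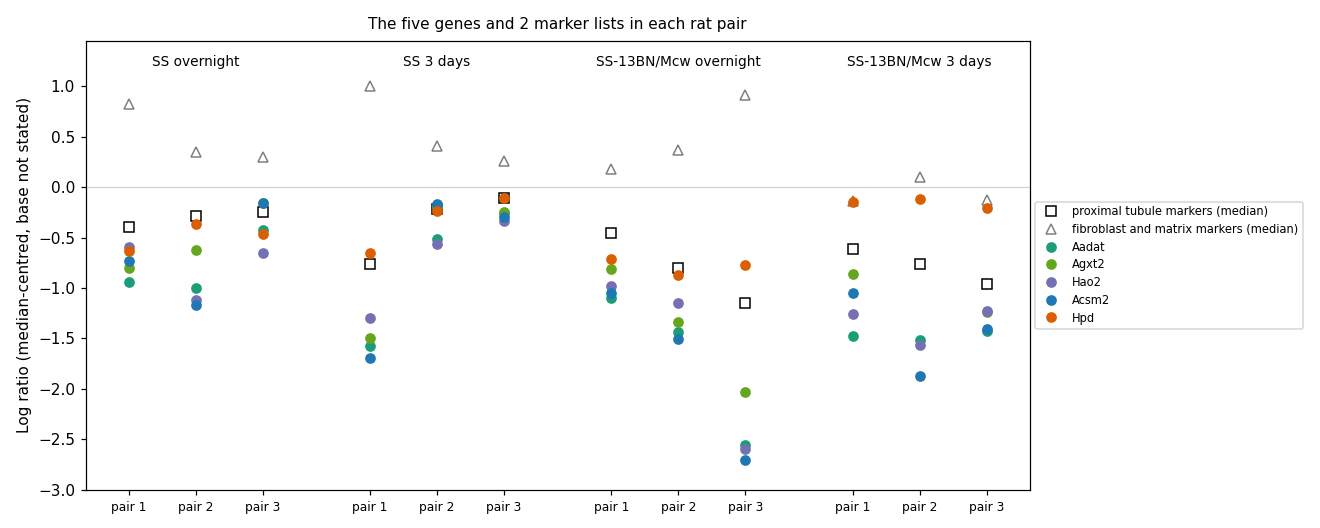
Filled circles give the log ratio (vertical axis) of the 5 genes in each of the 12 rat pairs (horizontal axis), open squares the median of the proximal tubule markers and open triangles that of the fibroblast and matrix markers. In SS-13BN/Mcw pair 3 overnight Acsm2 stands at -2.70, Hpd at -0.77 and the matrix markers at 0.91.

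The genes whose pattern over the 12 pairs was most like that of the members included 3 of the proximal tubule markers, Mme, Gsta2 and Anpep. They were sought among 594 probes with a gene symbol and a value in every pair, by Pearson's r with the mean of the 4 members that have all pairs (Aadat, Hao2, Hpd and Acsm2). The closest were Mme, the brush border peptidase neprilysin (r = 0.954), Gsta2, a glutathione transferase (0.953), Pdpn, the membrane glycoprotein podoplanin (0.953), and Anpep, a brush border aminopeptidase (0.949). Blvra, which reduces biliverdin (0.922), Acads, a short-chain acyl-CoA dehydrogenase (0.883), Gss, a glutathione synthesis enzyme (0.878), and Akr7a3, an aldehyde reductase (0.871), followed. The likeness was one of pattern and not of size. Pdpn averaged -0.31 ± 0.35 in SS-13BN/Mcw overnight and 0.040 ± 0.022 in SS overnight (n = 3 each), while Anpep averaged -1.84 ± 0.76 and -0.90 ± 0.51.

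Gene by gene, Aadat was closest to Acsm2 (r = 0.96), Gsta2 (0.954) and Hao2 (0.954). Hao2 was closest to Gsta2 (0.973), Mme (0.957) and Aadat (0.954), and Acsm2 to Anpep (0.968), Aadat (0.96) and Gsta2 (0.955). For Hpd the 3 closest were other genes, namely Ccnd1, the cell cycle gene cyclin D1 (0.888), Dbp, a transcription factor of the circadian clock's output (0.828), and Got1, an aspartate aminotransferase (0.801). Within groups the r of Hpd with these 3 was 0.84, 0.597 and 0.408. Dbp stood at -0.43 ± 0.026 overnight and 0.14 ± 0.078 at 3 days in SS-13BN/Mcw, and at -0.28 ± 0.32 and 0.054 ± 0.35 in SS (n = 3 each). Ccnd1 stood at -0.36 ± 0.070 and 0.037 ± 0.15 in SS-13BN/Mcw, and at -0.25 ± 0.095 and -0.11 ± 0.32 in SS.

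Whether the strains differed is the question of the strain comparison, which the study's design implies at each time. Overnight the values of SS-13BN/Mcw were the more negative in all 5 genes. The difference, SS-13BN/Mcw minus SS, was -0.91 ± 0.365 (SE) for Aadat, -0.87 ± 0.364 for Agxt2, -0.79 ± 0.363 for Hao2, -1.07 ± 0.457 for Acsm2 and -0.30 ± 0.132 for Hpd. None passed in limma across all probes (adjusted p = 0.898 for each). Without SS-13BN/Mcw pair 3 the differences shrank to -0.48 for Aadat, -0.55 for Agxt2, -0.28 for Hao2 and -0.60 for Acsm2. In Aadat, Agxt2 and Hpd each SS-13BN/Mcw pair lay below each SS pair, as it did in 7.69 percent of all 1053 tested probes. The values that chose the genes enter these differences, so they are no independent evidence of one.

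At 3 days the strain difference was -0.69 ± 0.367 (SE) for Aadat, -0.40 ± 0.409 for Agxt2, -0.62 ± 0.364 for Hao2 and -0.72 ± 0.46 for Acsm2, with the pairs of the strains overlapping in each, where 8.37 percent of the 824 tested probes had every SS-13BN/Mcw pair below every SS pair. For Hpd it had the other sign, 0.17 ± 0.131. The adjusted p in limma ran from 0.59 to 0.775 over the 5 genes. With 1 pair left out they moved in both directions. Without SS pair 1 at 3 days they were -1.09 for Aadat, -1.21 for Acsm2 and -0.83 for Agxt2, and 0.0094 for Hpd. Without SS pair 3 Aadat was at -0.43 and Hpd at 0.28, and without SS pair 2 Acsm2 was at -0.45 and Agxt2 at -0.18. The 95 percent intervals of the differences, unadjusted for the number of probes, ran from -1.49 to 0.11 for Aadat, from -1.73 to 0.28 for Acsm2 and from -0.12 to 0.45 for Hpd.

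Averaged over both times the strain difference was -0.80 ± 0.259 (SE) for Aadat, -0.70 ± 0.258 for Hao2, -0.90 ± 0.325 for Acsm2 and -0.63 ± 0.275 for Agxt2, against -0.063 ± 0.0923 for Hpd (-0.14 without SS pair 1 at 3 days and -0.0075 without pair 3), whose sign turned after quantile normalization (0.022). Without SS-13BN/Mcw pair 3 overnight Hao2 was at -0.45. In limma the adjusted p was 0.296, 0.342, 0.342, 0.434 and 0.886. That fit takes the times of a strain as independent, although they share rats. With the shared low-numbered rat as a block the SE was 0.295 for Aadat, 0.309 for Hao2 and 0.375 for Acsm2. The limma adjusted p was then 0.534, 0.63 and 0.594, with 0.673 for Agxt2 and 0.955 for Hpd. The share of probes that passed was 0 percent in each of the 3 strain comparisons, of 1053 overnight, 824 at 3 days and 822 for the mean. At an unadjusted p under 0.05 there were 53, 69 and 85 probes. A limma fit on single arrays passed 0, 8 and 28 probes, and in it the mean strain difference passed for Aadat (adjusted p = 0.0237), Acsm2 (0.0347) and Hao2 (0.0408). That fit counts the dye-swapped arrays of a pair almost as separate samples, since the correlation it estimated within pairs was between -0.0534 and -0.0377. With arrays scaled to one spread Aadat (0.0341) and Hao2 (0.0361) passed. The array titles hold a running number, read here as a slide number. It ran from 18 to 23 in SS overnight and from 36 to 41 in SS at 3 days. In SS-13BN/Mcw it ran from 24 to 43 overnight and from 28 to 35 at 3 days. At each time the numbers of the strains did not overlap, and in SS each time had numbers of its own. Slide order can therefore not be told apart from strain at either time, nor from time in SS.

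The next question was whether values differed between the times. In SS-13BN/Mcw the value of Hpd at 3 days was closer to 0 than overnight, by 0.62 ± 0.131 (SE), with a 95 percent interval from 0.34 to 0.91. Each 3-day pair lay above each overnight pair, as in 11.0 percent of the 897 probes tested. By unadjusted p (0.000481) Hpd ranked 1 of the 897 probes, but it did not pass in limma after adjustment (adjusted p = 0.276). With the shared low-numbered rat as a block the adjusted p was 0.085. It passed in the fit on single arrays (adjusted p = 0.0277) and without SS pair 1 at 3 days (0.0411), a pair that enters this comparison by the pooled spread alone. As for the strain differences, the values that chose the genes enter the time differences and the interaction, so their tests, ranks and intervals are no independent evidence.

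The other 4 genes did not pass between the times in SS-13BN/Mcw, with differences of 0.23 ± 0.367 (SE) for Aadat, 0.35 ± 0.41 for Agxt2, 0.23 ± 0.365 for Hao2 and 0.31 ± 0.461 for Acsm2 (limma adjusted p from 0.717 to 0.808). Without pair 3 of the overnight group the sign turned for Aadat (-0.20), Hao2 (-0.28) and Acsm2 (-0.16), as it did for Aadat (-0.035) and Hao2 (-0.016) with arrays scaled to one spread. The 95 percent interval for Aadat runs from -0.57 to 1.03, from -0.557 to 1.248 for Agxt2, from -0.57 to 1.02 for Hao2 and from -0.69 to 1.32 for Acsm2, and a difference of the size seen in Hpd lies inside them. In SS the differences were 0.0095 ± 0.369 for Aadat, -0.12 ± 0.368 for Agxt2, 0.055 ± 0.366 for Hao2, -0.033 ± 0.462 for Acsm2 and 0.16 ± 0.131 for Hpd, each with adjusted p = 0.988 in limma. No sign is read from these, since leaving out single pairs turned 4 of the 5.

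Whether the time difference of Hpd itself differed between the strains was tested as an interaction. It was 0.46 ± 0.185 (SE) larger in SS-13BN/Mcw than in SS, which did not pass in limma (adjusted p = 0.972, unadjusted 0.027). For the other 4 genes the interaction was between 0.17 and 0.46 with standard errors from 0.515 to 0.651 (adjusted p from 0.972 to 0.99). The share of probes that passed was 0 percent in the time comparisons of SS (880 probes) and SS-13BN/Mcw (897) and in the interaction (822), and 17, 101 and 20 had an unadjusted p under 0.05. The fit on single arrays passed 0, 11 and 0.

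**Figure D4:**
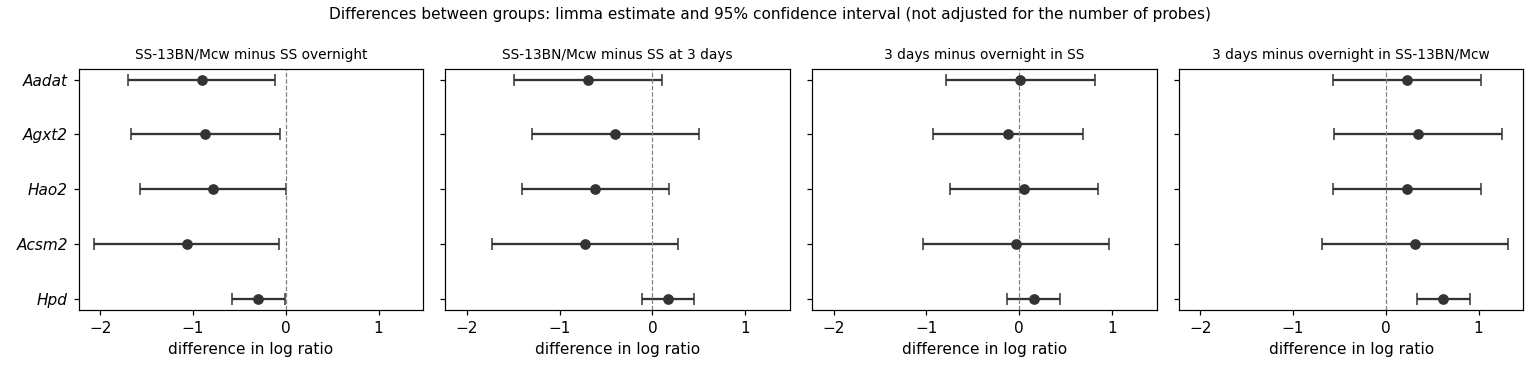
Difference in log ratio between groups (horizontal axis) for each gene (vertical axis), with the limma estimate as a point and its 95 percent confidence interval, not adjusted for the number of probes, as a bar. The interval of Hpd for 3 days minus overnight in SS-13BN/Mcw runs from 0.34 to 0.91, and the other 4 genes have intervals on both sides of 0 there.

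The enzymes around the 5 genes were taken from 6 lists of amino acid, oxo acid and acyl-CoA metabolism, 142 genes without the members, of which 56 probes had a value. The lists were chosen with earlier results of these data known, so their counts are a description and no independent evidence. In SS-13BN/Mcw overnight 14 of the 51 tested probes passed in limma, all negative, where 7.36 percent of all 1100 probes passed on that side and 10.5 percent on either. The median of the 51 was -0.224, against -0.00157 over all probes. No probe of the lists passed in SS overnight (0 of 48, background 1.14 percent) or SS at 3 days (0 of 41, background 0.340 percent), with medians of -0.0527 and -0.0657. In SS-13BN/Mcw at 3 days 2 passed on the negative and 1 on the positive side of 44 (background 2.98 percent, median -0.0857). Negative calls were not particular to these enzymes. Of the proximal tubule markers 9 of 14 tested passed on that side in SS-13BN/Mcw overnight, with a median of -0.806. At 3 days 6 of 12 did, with a median of -0.813, and in SS none did. The calls in SS-13BN/Mcw overnight rest on the spread pooled over groups, since fitted alone that group had 0 probes past the threshold in limma and 280 with an unadjusted p below 0.05. Leaving out its pair 3 left 12 calls in all.

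Downstream of Hpd in tyrosine breakdown, Fah, the enzyme of the last step, stood at -0.93 ± 0.17 (SE) in SS-13BN/Mcw overnight (limma adjusted p = 0.0163, as for the adjusted values of the genes that follow). Fah had a value in only 2 pairs there, with an SD of 0.46, and the SE uses the spread pooled over groups. In SS-13BN/Mcw at 3 days Fah stood at -0.085 ± 0.31 (SD, n = 2). In SS it stood at -0.27 ± 0.18 overnight (SD, n = 3) and at -0.36 in the 1 pair with a value at 3 days. The other measured genes of that list, the cytokine Mif, the aminotransferase Got1 and the pterin reductase Qdpr, averaged -0.069, 0.035 and -0.0074 over the 4 groups. Around Aadat, the tryptophan dioxygenase Tdo2 and the monoamine oxidase Maob averaged 0.036 and 0.035 over the groups, and 0 of the 3 tested probes of the list passed in SS-13BN/Mcw overnight.

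Around Agxt2 and Hao2, in glycine, serine and methyl group metabolism, 3 of 8 tested probes passed in SS-13BN/Mcw overnight. They were both enzymes of creatine synthesis, Gamt at -0.998 ± 0.257 (SE, adjusted p = 0.0321) and Gatm at -0.73 ± 0.14 (0.0262, from 2 pairs), and Ahcy, which clears S-adenosylhomocysteine, at -0.50 ± 0.14 (0.0419). Of glutamate, arginine and ornithine enzymes 3 of 7 passed there, namely Oat, the ornithine aminotransferase, at -0.71 ± 0.149 (0.0145), Glul, glutamine synthetase, at -0.65 ± 0.148 (0.0197), and Odc1, the first enzyme of polyamine synthesis, at -0.46 ± 0.134 (0.0473). Oat also passed in SS-13BN/Mcw at 3 days, at -0.71 ± 0.149 (0.0287). In SS it stood at -0.14 ± 0.066 overnight and -0.24 ± 0.14 at 3 days (SD, n = 3).

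Of branched-chain and propionate enzymes 2 of 9 passed in SS-13BN/Mcw overnight, Ivd, the isovaleryl-CoA dehydrogenase, at -0.33 and Hibadh, a dehydrogenase of valine breakdown, at -0.30. Bcat1, the cytosolic branched-chain aminotransferase, was positive, with a mean of 0.40 over the groups, and its mitochondrial relative Bcat2 averaged -0.19, near Bckdk, the kinase of the branched-chain dehydrogenase, at -0.27. Around Acsm2, of 20 acyl-CoA and fatty acid oxidation probes 5 passed on the negative side in SS-13BN/Mcw overnight. Acads stood at -0.64 and Echs1, an enoyl-CoA hydratase, at -0.54, Etfa, which passes electrons from these dehydrogenases, at -0.49, Hsd17b4, a peroxisomal enzyme, at -0.35 and Acadl, the long-chain dehydrogenase, at -0.32. At 3 days Hsd17b4 passed at -0.36 and Acsl3, a long-chain acyl-CoA synthetase, on the positive side at 0.43. Each of these listed values was smaller in size than the values of Acsm2, -1.76 and -1.44, in the same groups. Since Acsm2 was chosen by such values, the comparison of size is a description only.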

How the data were processed

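Kidney RNA of 12 rat pairs was measured on 24 two-colour cDNA arrays (Cy5 and Cy3 per the labels). The deposited values are 1 log ratio per probe and array; of log base, numerator and earlier steps, nothing is given in the sources used here. Of 3742 probe identifiers 1766 had a value, 1426 of them with 1 gene symbol, of which RefSeq gene numbers matched 1421.

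Arrays were median-centred, and the swapped arrays of each pair averaged without turning the sign. Swapped arrays of a pair had r from -0.0595 to 0.749 as they stand, below 0 in 4 of 12 pairs, and from 0.169 to 0.825, above 0 in 12 of 12, after removal of the mean of each orientation. The choice not to turn them rests on the latter. Groups and pair numbers came from the array titles. limma 3.58.1 in R 4.3.3 (statmod 1.5.0) fitted 1 coefficient per group to the 12 pairs, with eBayes and Benjamini-Hochberg adjustment over all probes that had at least 2 complete pairs in each group compared (threshold 0.05, two-sided). The spread that enters each p-value is that between pairs of rats. Rats 1 to 3 recur at both times of a strain by title, and deviations of same-numbered pairs had a mean r of 0.363 in SS and 0.323 in SS-13BN/Mcw (SS rat 2 at -0.0241), against -0.183 and -0.156 between numbers; a block for that rat was an alternative. The fit was first checked by simulation. Figures used Python 3.11.15 and matplotlib 3.10.9.

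Members, lists and motifs were chosen with earlier results of these data known. Named list genes were the 4 largest group-averaged values in size and any past a difference test; list genes past the threshold in a group are named beside their counts. Likeness names the 3 highest Pearson r per gene and the 8 highest for the mean.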

Additional observations from a re-analysis of the deposited data

Results flagged for a closer look

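In 4 of the named list genes every pair of one group was positive and every pair of another negative, which drew attention to them. In SS-13BN/Mcw Bcat2, the mitochondrial branched-chain aminotransferase, stood at -0.366 overnight and 0.0909 at 3 days, a difference of 0.457 (limma adjusted p = 0.359). In the same strain Scnn1a, which encodes a chain of the amiloride-sensitive sodium channel, stood at -0.084 and 0.284, a difference of 0.368 (adjusted p = 0.276). Dcn, the matrix proteoglycan decorin, stood there at 0.452 and -0.355, a difference of -0.807 (adjusted p = 0.424). In SS Mif stood at 0.168 overnight and -0.0185 at 3 days, a difference of -0.186 (adjusted p = 0.988). None passed in limma, and none is one of the 5 genes.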

How the results depend on the processing

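Precision is limited by 3 pairs a group, an unstated log base, and a dye orientation effect as large as some values of Hpd. In all, 23 alternatives were run, 12 of them leaving out 1 pair. All 20 group means of the 5 genes were below 0, as were all that could be computed under each alternative (19 in the 3 that leave Agxt2 in SS-13BN/Mcw at 3 days too few pairs), except with the arrays turned by dye, where 7 were below 0 (range -0.2743 to 0.2419). Turning subtracts 1 orientation from the other, so what they share cancels and what differs between them remains. If the deposited values were not already turned, what remains is the salt comparison.

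For the strain difference averaged over times, 0 members passed, against 2 with arrays scaled to one spread (Aadat -0.82, Hao2 -0.73) and 3 in the fit on single arrays. For 3 days against overnight in SS-13BN/Mcw 0 passed, against 1 (Hpd) in the fit on single arrays, and leaving out single pairs gave 0 to 1. The adjusted p of Hpd there ran from 0.0277 to 0.55 over the alternatives other than turning by dye. With the replicate block, pairing by the low-numbered rat, its adjusted p was 0.085 at a difference of 0.62, and no call of the 5 genes changed. Other causes of these changes were not tested.

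Signs turned for values that had not passed. With arrays scaled, 3 days minus overnight in SS was 0.023 for Agxt2 and 0.12 for Acsm2, in SS-13BN/Mcw -0.035 for Aadat and -0.016 for Hao2, and the interaction -0.18 for Aadat, -0.22 for Hao2 and -0.092 for Acsm2. After quantile normalization the mean strain difference of Hpd was 0.022, Acsm2 in SS 0.14, and the interaction -0.053 for Aadat, -0.18 for Hao2 and -0.027 for Acsm2. With arrays turned by dye the strain difference overnight was 0.14 for Agxt2, 0.085 for Hpd and 0.057 for Acsm2, at 3 days -0.10 for Hpd, and on average 0.038 for Agxt2 and 0.016 for Acsm2. The time difference was then -0.26 for Hao2 in SS, and in SS-13BN/Mcw -0.084 for Aadat, -0.25 for Agxt2, -0.094 for Hao2, -0.062 for Hpd and -0.12 for Acsm2. The interaction was -0.096 for Aadat, -0.21 for Agxt2, -0.19 for Hpd and -0.082 for Acsm2. The time difference in SS was -0.20 for Hao2 on arrays with the low-numbered rat in Cy5, and -0.0028 for Aadat and 0.0014 for Acsm2 on those with it in Cy3. With 1 pair left out it ran from -0.2533 to 0.4065 for Aadat, -0.3433 to 0.3083 for Agxt2, -0.1432 to 0.3383 for Hao2 and -0.3104 to 0.4543 for Acsm2. In SS-13BN/Mcw it then ran from -0.2029 to 0.5248 for Aadat, -0.2807 to 0.525 for Hao2 and -0.1626 to 0.6631 for Acsm2, and the interaction from -0.2123 to 0.5153 for Aadat, -0.3361 to 0.4696 for Hao2 and -0.1426 to 0.6962 for Acsm2.

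Over all probes, the 116 calls of SS-13BN/Mcw overnight became 309 with arrays turned by dye, 287 on arrays with the low-numbered rat in Cy3, 212 on single arrays, 0 fitted alone and 12 to 144 with a pair left out. The 27 calls at 3 days became 299 with arrays turned, 153 on the Cy3 arrays, 61 with scaled arrays, 64 after quantile normalization, 56 on single arrays and 0 to 50 with a pair left out. The 13 calls in SS overnight became 325 with arrays turned, 56 and 121 on the Cy5 and Cy3 arrays, 51 scaled, 65 after quantile normalization, 74 on single arrays, 31 fitted alone and 0 to 21 with a pair left out. The 3 in SS at 3 days became 344, 73 and 64, 9, 16, 38, 0 and 0 to 10 in the same order. The mean strain difference, with 0 calls, had 22 with scaled arrays and 14 after quantile normalization.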
